A study of Mus musculus with 8 samples.

Results

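The Zfp36 and BTG/TOB genes, which control how fast messenger RNAs are shortened and degraded, were followed in NMuMG cells, a line of normal mouse mammary gland epithelium. They were taken by gene symbol from the deposited table of raw counts and comprise the Zfp36 family (Zfp36, Zfp36l1, Zfp36l2) and the BTG/TOB family (Btg1, Btg2, Btg3, Tob1, Tob2), 8 symbols on 9 of the 37310 rows of the table, because Tob2 has 2 identifiers. RNA was sequenced from 4 groups of 2 libraries each. The control group held unedited NMuMG cells without added factor, and control_TGFb2h held the same cells after 2 h with 10 ng/ml TGF-β1, the cytokine that starts epithelial-to-mesenchymal transition in this line. KO held cells in which CRISPR-Cas9 had deleted a fragment between a cut in the promoter and a cut in exon 1 of the long non-coding RNA gene Lnc-Nr6a1, without TGF-β1, and KO_TGFb2h held those cells after the same treatment. All groups were grown in medium with serum and insulin. The edited cells descended from clones selected for a deletion, and the sources used here do not say whether the 4 KO libraries came from 1 clone, so an effect of the deletion and of clonal descent cannot be told apart.

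Proteins of the Zfp36 family, of which tristetraprolin (Zfp36) is the founding member, bind AU-rich elements in the 3′UTR of short-lived mRNAs through paired CCCH zinc fingers and recruit the CCR4-NOT deadenylase, which removes the poly(A) tail before decapping and exonucleolytic decay. BTG and TOB proteins share a domain that binds the CCR4-NOT nucleases encoded by Cnot7 and Cnot8 and also contact poly(A)-binding protein, and several of them restrain proliferation when overexpressed. Many of these genes are themselves early-response genes with unstable mRNAs, and tristetraprolin is known to act on its own mRNA.

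The 3′UTR of 6 of the 8 members held at least 1 copy of TATTTAT, the DNA spelling of the heptamer that Zfp36 proteins prefer, against 23.8% of the 20007 genes with an annotated 3′UTR. Zfp36, Zfp36l1 and Zfp36l2 had 3 copies each, Btg3 had 2, Btg2 and Tob2 had 1, and Btg1 and Tob1 had none. The 3′UTRs differed in length, from 439 bases in Btg3 to 4170 in Btg1, with a median of 891 over all these genes. The 23.8% is therefore not matched for length. Of other tested genes with at least 1000 bases of 3′UTR, 347 held 3 or more copies, 2191 held 1 or 2 and 3629 held none. One window of 30 bases per member is shown on the transcribed strand, with the heptamer in capitals, because the same letters occur in the mRNAs these proteins act on. The letters come from genome build NCBIM37 (mm9) with GENCODE vM1 gene models, and all 6 lie on the minus strand.
Zfp36 chr7:29161981-29162010: gggcccttTATTTATgacgacttTATTTAT
Zfp36l1 chr12:81209408-81209437: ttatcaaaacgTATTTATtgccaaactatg
Zfp36l2 chr17:84584253-84584282: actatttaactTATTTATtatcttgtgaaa
Btg2 chr1:135973825-135973854: aaatgaagagcTATTTATacatgttttttt
Btg3 chr16:78360285-78360314: ttggacttgagTATTTATatattgtgcatt
Tob2 chr15:81680289-81680318: tatcacctgctTATTTATgtacgaggttgg
A match to these letters describes the sequence and is not a measured binding site.

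The promoters of the 3 members that changed with TGF-β1 and had an entry among the RefSeq promoters (build GRCm38.p6, 7 of 8 members matched, Btg3 with 2 entries) are shown for the 250 bases before the annotated start. The cyclic AMP response palindrome TGACGTCA and its shorter part TGACG, which overlaps it, were searched on both strands, as were the AP-1 motif TGANTCA, the Smad-binding core CAGAC, the TATA box spelled TATAAA and the CArG box. Capitals mark TGACGTCA in Btg2, TGACG on either strand in Btg1, and the CArG box, to which serum response factor binds, in Zfp36.
Btg2 chr1:134079156-134079405, minus strand: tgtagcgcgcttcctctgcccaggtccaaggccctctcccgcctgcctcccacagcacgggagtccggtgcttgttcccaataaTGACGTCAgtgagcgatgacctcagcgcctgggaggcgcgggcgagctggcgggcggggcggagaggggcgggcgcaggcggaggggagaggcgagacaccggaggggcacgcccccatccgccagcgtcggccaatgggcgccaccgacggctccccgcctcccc
Zfp36 chr7:28379229-28379478, minus strand: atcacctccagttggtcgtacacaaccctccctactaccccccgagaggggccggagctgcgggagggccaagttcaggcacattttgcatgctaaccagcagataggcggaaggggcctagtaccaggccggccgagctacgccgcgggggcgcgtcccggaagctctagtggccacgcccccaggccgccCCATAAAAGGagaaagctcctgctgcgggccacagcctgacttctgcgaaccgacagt
Btg1 chr10:96616751-96617000, plus strand: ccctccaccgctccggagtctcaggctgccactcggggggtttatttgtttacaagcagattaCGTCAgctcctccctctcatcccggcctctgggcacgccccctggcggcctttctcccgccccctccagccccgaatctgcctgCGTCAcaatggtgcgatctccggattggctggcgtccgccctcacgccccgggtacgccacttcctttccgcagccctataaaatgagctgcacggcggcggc
The palindrome occurred in 1.55% of 32851 promoters of this length, the CArG box in 1.47%, the AP-1 motif in 6.75%, the letters TGACG in 17.8%, the TATA box in 12.4% and the Smad core in 42.2%. Zfp36l1 held the AP-1 motif and a TATA box, Tob1 held the letters TGACG with a Smad core and a TATA box, Btg1 held a TATA box as well, and none of the searched motifs lay in the windows of Btg3 or Tob2.

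The libraries held between 4297832 and 13574397 counted reads. The 4 treated libraries were the deeper ones, at 9895118 to 13574397 reads against 4297832 to 7871090 in the untreated ones. A check of the labels came from Gm13507, the annotated Lnc-Nr6a1 gene, which had 3 and 14 reads in the control libraries, 25 and 35 in control_TGFb2h, 11 and 7 in KO, and 0 and 0 in KO_TGFb2h. It was absent from the treated edited libraries but not lower in the untreated ones than in the controls. These read numbers are small, and the study reports full loss of the Lnc-Nr6a1 isoforms by RT-qPCR in homozygous deletion clones. The samples are named here as libraries labelled knockout. The epithelial genes Krt8, Krt18 and Cdh1 were abundant, with Krt18 at 1769 to 3447 RPKM in the group means, whereas Cldn3 had no reads and Epcam had 2 reads in 1 library. The summed level of the epithelial markers was higher in treated libraries. It was 5873 to 5951 CPM in control, 8029 to 10940 in control_TGFb2h, 6632 to 6970 in KO and 7939 to 10400 in KO_TGFb2h, and Krt8 and Krt18 rose in control cells, at log2 fold changes of 0.65 and 0.96, each called in 3 of the 8 fits that left out 1 library. Over those fits Krt8 ranged from 0.42 to 0.84 and Krt18 from 0.62 to 1.23. In knockout-labelled cells Krt8 and Krt18 were at 0.58 and 0.48 (adjusted p = 0.0792 and 0.229), and Krt19 was at -0.08 in both genotypes. Cdh1 was higher in knockout-labelled than in control cells after treatment, at 0.61 (adjusted p = 0.0433, 2 of 8 fits). The part of these changes in the members' values was not tested. The 12 markers of other cell types summed to 8.90 to 11.9 CPM (read counts scaled by library size) in untreated and 29.7 to 49.4 in treated libraries, and to 5.07 to 9.48 in all 8 libraries once Krt14 was left out. Of 8 known TGF-β target genes, 5 rose in each genotype, where 4.69% and 4.25% of all genes were called higher. In control cells 1, Id1, fell (log2 fold change -0.65, adjusted p = 0.0480, called in 3 of 8 fits), where 4.47% of all genes were called lower. Of the 5 that rose, 4 were called in 8 of 8 fits in both genotypes and Smad7 in 6. Between treated cells Snai1 was the 1 of the 8 called (0.79, adjusted p = 0.0479, 1 of 8 fits). There 8.47% of all genes were called higher and 6.57% lower. In each treated group 1 library stood apart from the other in the genes described below as targets of Zfp36 proteins. Of the 25 tested, 24 were higher in control_TGFb2h replicate 1 than in replicate 2, and 23 were higher in KO_TGFb2h replicate 2 than in replicate 1, with 13 and 14 of them more than 2-fold higher.

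Levels are given as CPM with TMM scaling or, where genes are compared with each other, as CPM per kilobase of exon (RPKM). In the control cells Btg1 was the most abundant member at 44.5 ± 0.36 RPKM (SD, n = 2), followed by Tob1 at 32.4 ± 4.19 and Zfp36l2 at 23.7 ± 1.58, and these 3 did not overlap between their libraries. Zfp36l1 (14.2 ± 2.39 RPKM) and Btg2 (13.9 ± 1.17) overlapped each other, as did Tob2 (9.36 ± 2.56) and Zfp36 (8.80 ± 0.074). The order changed after treatment. Zfp36l2 ranked second in control_TGFb2h at 35.5 ± 4.32 RPKM, and in KO_TGFb2h it stood at 70.7 ± 15.5, overlapping Btg1 at 66.0 ± 4.83. Zfp36 was the seventh of 8 in every group, and Btg3 was the last in each.

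**Figure D1:**
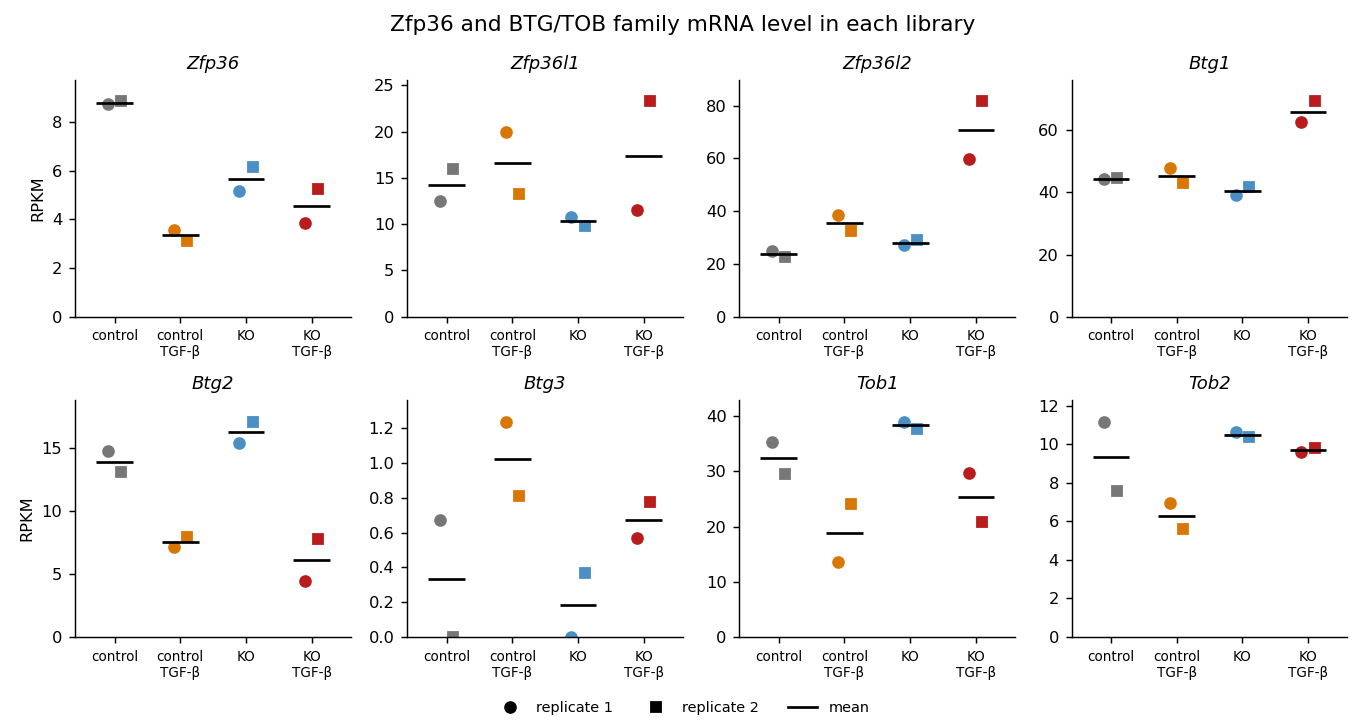
Level of each member in RPKM (vertical axis, from 0, a separate scale per gene) in the 8 libraries, with circles for replicate 1, squares for replicate 2 and a line at the mean of the 2. Zfp36 fell from a mean of 8.80 to 3.34 RPKM with TGF-β1 in control cells, and Zfp36l2 and Btg1 are highest in the treated libraries labelled knockout.

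Btg3, which encodes a BTG protein with a role in cell cycle arrest, lay below the filter on low counts and could not be tested with the rest. It had 8 and 0 reads in the control libraries, 19 and 11 in control_TGFb2h, 0 and 4 in KO, and 10 and 14 in KO_TGFb2h. All 4 treated libraries had more reads than any untreated one, but they were also deeper. Scaled for depth, this separation did not hold, with 0.965 CPM in control replicate 1 and 0.815 in KO_TGFb2h replicate 1. In a fit without the filter its log2 fold change with TGF-β1 was 1.58 (SE 0.87, adjusted p = 0.306, edgeR quasi-likelihood test) in control and 1.63 (SE 0.99, adjusted p = 0.433) in knockout-labelled cells. The short identifier of Tob2, at chr15:81688104-81689226, shares exon sequence with the main one and had between 0 and 7 reads per library. The germline and placental relatives Btg4 and Zfp36l3 had no reads in any of the 8 libraries.

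The first question was how 2 h of TGF-β1 moved these genes in control cells. A gene was called when its adjusted p, from edgeR's quasi-likelihood test with Benjamini-Hochberg adjustment over the 13028 genes that passed the filter, was below 0.05 and its absolute log2 fold change above 0.5. Of the 7 tested members 1 was called lower, where 4.47% of all tested genes were, and 0 were called higher, where 4.69% of all genes were. At an unadjusted p below 0.05 there were 5 of 7 members against 26.8% of all genes.

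The member that fell was Zfp36. It measured 15.7 and 15.9 CPM in the control libraries, 6.37 and 5.61 in control_TGFb2h, 9.26 and 11.0 in KO, and 6.93 and 9.38 in KO_TGFb2h. Both control libraries were above every other library and both treated control libraries were below every other. The fall in control cells was 2.63-fold, a log2 fold change of -1.39 (SE 0.26, adjusted p = 0.0144). Without control replicate 1 or control replicate 2 the log2 fold change stayed at -1.40 and -1.38. The call was lost in both fits. Far fewer of all tested genes were called there as well, so this loss need not be particular to Zfp36. The call was also lost in some random draws when all libraries were thinned to the smallest total. Zfp36 was called in 14 of 20 draws (median adjusted p = 0.0393). In the knockout-labelled cells the treated and untreated libraries overlapped and the log2 fold change was -0.32 (SE 0.26, adjusted p = 0.512), with a range of -0.53 to -0.096 when 1 library was left out, the ends being without KO_TGFb2h replicate 2 and replicate 1. The gene lies at chr7:29161803-29164274 on the minus strand of NCBIM37.

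Btg2, a p53-responsive antiproliferative gene at chr1:135971747-135975697, was low in all treated libraries. Its level was 40.3 and 35.8 CPM in control, 19.5 and 21.7 in control_TGFb2h, 42.1 and 46.8 in KO, and 12.2 and 21.3 in KO_TGFb2h. Treated and untreated libraries did not overlap in either genotype. With 2 libraries per group a gene can separate without a change. The share of all genes that did not overlap was not counted, here or for the other members. The log2 fold change in control cells was -0.89 (SE 0.25, adjusted p = 0.0553), just above the threshold, and it passed in DESeq2 (adjusted p = 0.0188) and in the fit without a filter (adjusted p = 0.00266). It was called in 6 of 20 draws thinned to the smallest total (median adjusted p = 0.0613), and its adjusted p reached 0.278 among the fits that left out 1 library. In knockout-labelled cells Btg2 fell 2.65-fold, a log2 fold change of -1.41 (SE 0.25, adjusted p = 0.0116). That call was lost without KO replicate 1 (adjusted p = 0.0701) and without KO replicate 2 (adjusted p = 0.106), and it held in 19 of the 20 thinned draws.

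Tob1 and Tob2 encode the larger relatives that bind both the deadenylase and poly(A)-binding protein. Tob1 (chr11:94072768-94076809) measured 80.9 and 67.4 CPM in control, 31.0 and 55.1 in control_TGFb2h, 89.3 and 86.4 in KO, and 68.0 and 47.8 in KO_TGFb2h. The treated libraries lay below the untreated ones of the same genotype, with a wide gap between the 2 treated libraries of each. The log2 fold change was -0.79 (SE 0.27, adjusted p = 0.0977) in control and -0.60 (SE 0.26, adjusted p = 0.217) in knockout-labelled cells, and neither passed. For the first, DESeq2 gave an adjusted p of 0.0367 and the edgeR fit without a filter gave 0.00152. In knockout-labelled cells the Tob1 value was -0.85 without KO_TGFb2h replicate 1 and -0.34 without KO_TGFb2h replicate 2. The value in control cells also depended on the treated library, being -1.26 (adjusted p = 0.0168) without control_TGFb2h replicate 2 and -0.44 without control_TGFb2h replicate 1, and the adjusted p reached 0.393 among the fits that left out 1 library.

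Tob2 (chr15:81678700-81688756) was at 44.6 and 30.1 CPM in control, 27.8 and 22.3 in control_TGFb2h, 42.5 and 41.3 in KO, and 38.3 and 39.2 in KO_TGFb2h. The treated control libraries were the lowest pair and the other 6 overlapped between 30.1 and 44.6 CPM. Its log2 fold change with TGF-β1 was -0.57 (SE 0.21, adjusted p = 0.120) in control and -0.11 (SE 0.21, adjusted p = 0.802) in knockout-labelled cells. The value in control cells was -0.27 without control replicate 1 and -0.83 without control replicate 2.

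In the libraries labelled knockout TGF-β1 moved members in both directions. Here 2 of the 7 tested members were called higher, Zfp36l2 and Btg1, where 4.25% of all genes were, and Btg2 was the 1 called lower, where 2.57% of all genes were. At an unadjusted p below 0.05 there were 5 of 7 members against 22.7% of all genes.

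Zfp36l2, a relative known from oocyte, lymphocyte and blood stem cell development, had the largest rise among the tested members, which leave out Btg3. It measured 87.6 and 79.7 CPM in control, 136 and 115 in control_TGFb2h, 95.5 and 102 in KO, and 211 and 288 in KO_TGFb2h. The 4 groups did not overlap. The rise in knockout-labelled cells was 2.52-fold, a log2 fold change of 1.33 (SE 0.18, adjusted p = 0.00331), and without KO replicate 1 the adjusted p was 0.0569. In control cells the rise was 0.58 on the log2 scale (SE 0.18, adjusted p = 0.0728), which DESeq2 placed at an adjusted p of 0.0430. The gene lies at chr17:84583271-84587287.

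Btg1, described as a brake on proliferation and a factor in lymphocyte quiescence, moved less but was measured on many reads (892 to 4373 per library). Its level was 222 and 224 CPM in control, 239 and 215 in control_TGFb2h, 197 and 208 in KO, and 313 and 348 in KO_TGFb2h. The treated libraries labelled knockout stood above the other 6, which spanned 197 to 239 CPM. The log2 fold change was 0.71 (SE 0.13, adjusted p = 0.0148) in knockout-labelled cells and 0.03 (SE 0.13, adjusted p = 0.916) in control cells. The call was lost without KO replicate 1 (adjusted p = 0.137), KO replicate 2 (0.110) or KO_TGFb2h replicate 2 (0.0920). Btg1 lies at chr10:96079635-96085447, and the 2 annotated Btg1-like genes on the X chromosome had 3 reads in all.

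Zfp36l1, which with Zfp36l2 limits cell cycle entry in lymphocyte progenitors, was the tested member whose replicates differed most. It was at 37.4 and 47.5 CPM in control, 59.7 and 39.6 in control_TGFb2h, 32.2 and 29.2 in KO, and 34.5 and 69.5 in KO_TGFb2h. Treated and untreated libraries overlapped in control cells and did not overlap in knockout-labelled cells. The log2 fold change was 0.23 (SE 0.32, adjusted p = 0.687) and 0.76 (SE 0.32, adjusted p = 0.201). The second value was called in the fit without a filter (0.82, adjusted p = 0.00280) and without KO_TGFb2h replicate 1 (1.20, adjusted p = 0.0296), and it was 0.20 without KO_TGFb2h replicate 2. Its exons at chr12:81208747-81214000 overlap Gm17591 on the other strand, which had 0 to 5 reads per library, and an annotated pseudogene copy had 7 reads in all 8 libraries.

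**Figure D2:**
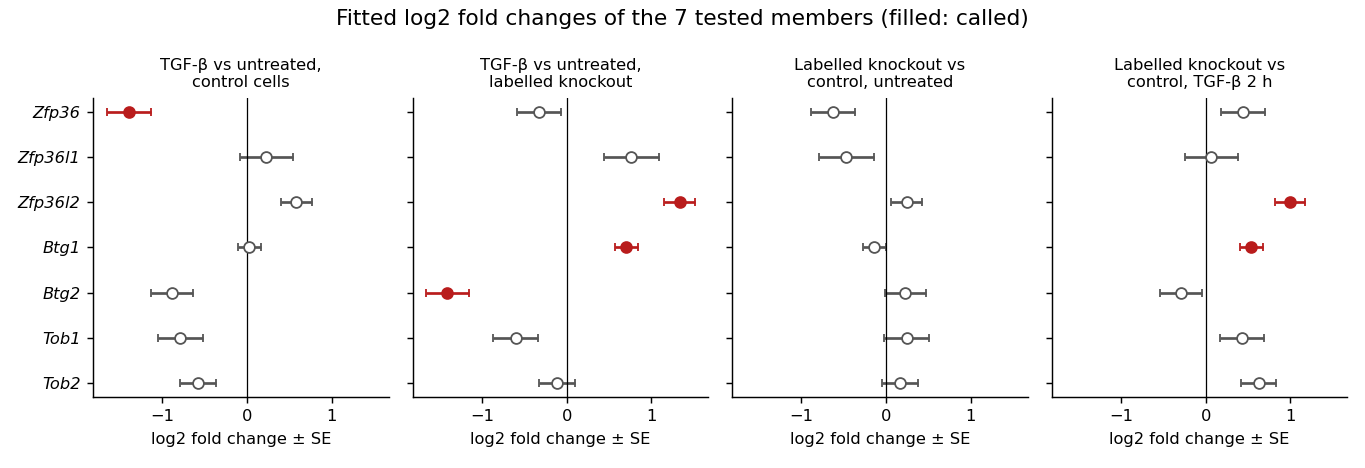
Fitted log2 fold changes (horizontal axis, bars are SE) of the 7 tested members in 4 comparisons, filled red where called. Zfp36 is called in control cells at -1.39, Zfp36l2, Btg1 and Btg2 in the knockout-labelled cells at 1.33, 0.71 and -1.41, and Zfp36l2 and Btg1 between the treated groups at 0.99 and 0.54.

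Whether the response to TGF-β1 differed between the genotypes was tested directly as the difference of the responses. No gene was called, 0% of the 13028 tested, and 0 of the 7 members. The same test gave 1134 genes at an unadjusted p below 0.05, 8.7% of all, and 3 of the 7 members, Zfp36, Zfp36l2 and Btg1. Limma-voom called 0 genes, DESeq2 called 23 higher and 7 lower, and the fit without a filter called 147 higher and 64 lower. No member was among them. The difference, knockout-labelled minus control, was 1.07 for Zfp36 (SE 0.37, adjusted p = 0.497), 0.75 for Zfp36l2 (SE 0.25, adjusted p = 0.497) and 0.68 for Btg1 (SE 0.19, adjusted p = 0.445) on the log2 scale. For Btg2 it was -0.52 (SE 0.35, adjusted p = 0.708), with -0.15 without KO_TGFb2h replicate 1 and -0.94 without KO_TGFb2h replicate 2, and for Tob1, Tob2 and Zfp36l1 it lay between 0.19 and 0.53 with SEs of 0.30 to 0.45. The Tob2 value was 0.16 without control replicate 1 and 0.72 without control replicate 2. The different calls in the 2 genotypes are therefore not shown to be a difference between them.

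Between untreated cells the question was whether the libraries labelled knockout differed from control at the start. None of the 7 tested members was called higher or lower, where 1.03% and 0.798% of all genes were. At an unadjusted p below 0.05 Zfp36 was the 1 member (14.9% of all genes), at a log2 fold change of -0.63 (SE 0.26, adjusted p = 0.296), with both KO libraries below both controls. The median over the 943 tested genes of chromosome 7, which carries Zfp36, was -0.25 in this comparison and -0.14 between the treated groups, and its part in the Zfp36 value was not tested. Zfp36l1 was at -0.47 (SE 0.33, adjusted p = 0.551), and at -0.29 without control replicate 2. Btg1 was at -0.14 (SE 0.13, adjusted p = 0.676), and Zfp36l2, Btg2, Tob1 and Tob2 lay between 0.16 and 0.24 on the log2 scale. With 1 library left out Btg2 ranged from 0.14 to 0.31 and Tob1 from 0.12 to 0.38.

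Between treated cells, 2 of the 7 members were called higher in the libraries labelled knockout, where 8.47% of all genes were, and 0 lower, where 6.57% were. At an unadjusted p below 0.05 there were 3 of 7 members against 31.4% of all genes. Zfp36l2 was 1.99-fold higher, a log2 fold change of 0.99 (SE 0.18, adjusted p = 0.00824), and Btg1 was 1.45-fold higher, at 0.54 (SE 0.13, adjusted p = 0.0257). In a fit of only these 4 libraries the log2 fold changes were 1.00 and 0.54 with adjusted p of 0.0593 and 0.117, so neither was called. Over all genes that fit called 262 higher and 148 lower, against 1103 and 856 in the main fit. Without KO_TGFb2h replicate 2 the adjusted p of Zfp36l2 was 0.0548, and the Btg1 call was lost in 7 of the 8 fits that left out 1 library, with adjusted p up to 0.156. Thinned to the smallest total, Zfp36l2 was called in 20 of 20 draws and Btg1 in 14.

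Tob2 was 0.63 higher on the log2 scale between treated cells (SE 0.21, adjusted p = 0.0736), with both KO_TGFb2h libraries above both control_TGFb2h libraries. It passed in the fit without a filter (adjusted p = 0.0246) and without control_TGFb2h replicate 1 (0.81, adjusted p = 0.0431). Zfp36, at 0.44 (SE 0.26, adjusted p = 0.280) and 0.22 without KO_TGFb2h replicate 2, also did not overlap between these groups. Tob1 at 0.43, Btg2 at -0.30 and Zfp36l1 at 0.07 did overlap. With 1 library left out in turn the Tob1 value ranged from 0.089 to 0.90. This comparison and the response of control cells share the 2 control_TGFb2h libraries, and the response of knockout-labelled cells shares the 2 KO_TGFb2h libraries with it, so the values of a gene across these comparisons are not independent.

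Within each family the members' shares of the summed level were compared between groups. Zfp36l2 made up 50.8 ± 4.34% (SD, n = 2) of the summed Zfp36-family RPKM in control, 64.2 ± 3.09% in control_TGFb2h, 63.7 ± 1.12% in KO and 76.8 ± 3.78% in KO_TGFb2h. Zfp36 made up 18.8 ± 0.20%, 6.07 ± 0.48%, 12.9 ± 1.20% and 4.95 ± 0.28% in the same order. The treated and untreated libraries did not overlap in either share within a genotype. The sum was 46.7 ± 0.89 RPKM in control and 55.5 ± 9.39 in control_TGFb2h, and 44.0 ± 1.35 in KO and 92.6 ± 24.8 in KO_TGFb2h.

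In the BTG/TOB family Btg1 went from 44.4 ± 3.91% of the summed RPKM to 57.6 ± 6.73% in the libraries labelled control, and from 38.2 ± 0.84% to 61.2 ± 3.77% in those labelled knockout. Btg2 went from 13.8 ± 0.057% to 9.50 ± 0.32% and from 15.3 ± 0.85% to 5.66 ± 2.11%. Tob1 went from 32.2 ± 1.59% to 23.7 ± 8.43% and from 36.3 ± 1.54% to 23.5 ± 6.05%. The sum was 100.5 ± 8.04 RPKM in control and 79.0 ± 3.36 in control_TGFb2h, and 105.7 ± 2.02 in KO and 107.7 ± 1.25 in KO_TGFb2h. These shares are a description over 2 libraries per group, and a share of one member moves with the levels of the others.

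**Figure D3:**
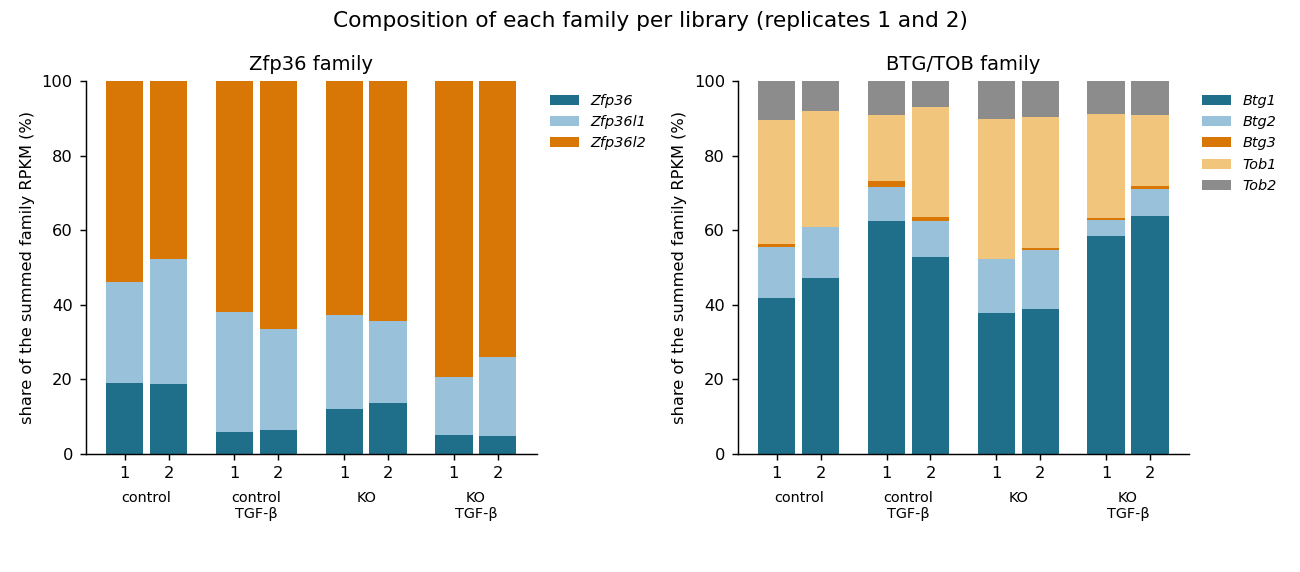
Share of the summed RPKM of each family (vertical axis, percent, stacked to 100) contributed by each member in the 8 libraries, paired by group. In the Zfp36 family the Zfp36l2 segment is smallest in control (50.8% on average) and largest in the treated libraries labelled knockout (76.8%), and in the BTG/TOB family the Btg1 segment is larger in treated than in untreated libraries.

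The 2 libraries of a group agreed to a median absolute log2 difference of 0.21 (control), 0.34 (control_TGFb2h), 0.20 (KO) and 0.22 (KO_TGFb2h) over all tested genes. Of the 7 tested members, 6 had their largest difference in a treated group, and Tob2 had it in control, at 0.56. The share of all genes with their largest difference in a treated group was not counted, so this is a description. Zfp36l1 differed by 0.59 between control_TGFb2h replicates 1 and 2, and by -1.01 between the KO_TGFb2h replicates, a gap exceeded by 5.45% of genes. Tob1 differed by -0.83 and 0.51 and Btg2 by -0.15 and -0.80 in the same groups. The library with more Zfp36l1 had less Tob1 in both treated groups, being replicate 1 in control_TGFb2h and replicate 2 in KO_TGFb2h.

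**Figure D4:**
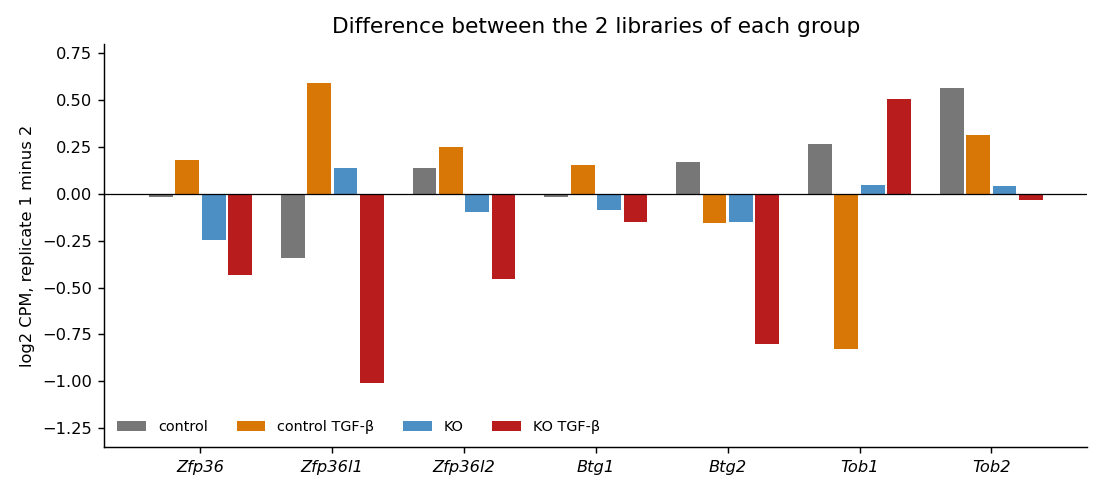
Difference of log2 CPM between replicate 1 and replicate 2 (vertical axis) for the 7 tested members in each of the 4 groups. The tallest bars belong to treated libraries, with Zfp36l1 at -1.01 and Btg2 at -0.80 in KO_TGFb2h and Tob1 at -0.83 in control_TGFb2h.

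The machinery that these proteins recruit was followed in gene lists. Beside each call stands the number of the 8 fits leaving out 1 library in which it held. Leaving out any 1 untreated library also lowered the number of calls over all tested genes in each comparison of groups. A call of a member or list gene lost in such a fit need not be particular to that gene. Of the 15 genes of the CCR4-NOT complex and its GW182 adaptors, all tested, 1 was called higher and 1 lower with TGF-β1 in control cells, where 4.69% and 4.47% of all genes were, with a list median of 0.01 against 0.02 for all genes. These were Cnot2, a scaffold subunit, at 0.52 (SE 0.13, adjusted p = 0.0368, 0 of 8 fits), and Tnrc6b, a GW182 protein of microRNA silencing, at -0.65 (SE 0.14, adjusted p = 0.0217, 4 of 8 fits, lost without any one of the untreated libraries). None of the 15 was called in knockout-labelled cells or between untreated cells. Between treated cells 2 were called higher, where 8.47% of all genes were, Tnks1bp1 at 1.03 (SE 0.24, adjusted p = 0.0215, 6 of 8 fits, lost without replicate 2 of either treated group) and Tnrc6c at 0.54 (SE 0.15, adjusted p = 0.0367, 1 of 8 fits). The nuclease genes Cnot7 and Cnot8, the partners of BTG and TOB, were not called in any comparison. Tnks1bp1 and Cnot1, the central scaffold, were the most abundant of the list, with group means of 34.9 to 71.2 and 35.3 to 37.9 RPKM.

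Among 7 other deadenylase and poly(A)-binding genes, led by Pabpc1 and Paip2, none was called in any comparison, with list medians between -0.24 and 0.05 in the 4 comparisons of groups. Of the 17 decapping and 5′ to 3′ decay genes 16 were tested. Edc4, an enhancer of decapping, and Gigyf1, a partner of the cap-binding repressor 4EHP, fell in control cells by 0.64 and 1.00 on the log2 scale (adjusted p = 0.0326 and 0.0282), where 4.47% of all genes were called lower. Each call held in 3 of 8 fits and was lost without any one of the untreated libraries or control_TGFb2h replicate 2. Both were higher in knockout-labelled than in control cells after treatment, by 0.89 and 0.99 (adjusted p = 0.00686 and 0.0195), in 8 and 6 of 8 fits, and Lsm14a was lower at -0.58 (adjusted p = 0.0391, 1 of 8 fits). Between treated cells 8.47% of all genes were called higher and 6.57% lower. The most abundant genes of that list, Xrn2 and Ddx6, were not called in any comparison.

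The exosome, which degrades the mRNA body from the 3′ end, had 14 tested genes, with Exosc1 and Exosc5 the most abundant. Skiv2l, the helicase of its cytoplasmic SKI cofactor, was the only one called with TGF-β1. It was lower in control cells at -0.58 (SE 0.14, adjusted p = 0.0321), where 4.47% of all genes were called lower. That call held in 3 of 8 fits and was lost without any one of the untreated libraries or control_TGFb2h replicate 2. Between treated cells 1 of 14 was called higher, Skiv2l at 0.95 (adjusted p = 0.00370, 8 of 8 fits), and 4 were called lower, Dis3, Exosc2, Exosc8 and Exosc9, between -0.60 and -1.04, where 8.47% and 6.57% of all genes were. Dis3 and Exosc8 held in 6 of 8 fits and Exosc2 and Exosc9 in 1, so that 0 to 3 of the 14 were called lower with 1 library left out, and 0 without KO_TGFb2h replicate 2. With 1 library left out the Exosc2 value ranged from -0.76 to -0.39 and the Exosc9 value from -0.86 to -0.42. The list median between treated cells was -0.12 against -0.01 for all genes.

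Other proteins that bind AU-rich or stem-loop elements in 3′UTRs were represented by 15 tested genes. With TGF-β1 1 was called higher and 1 lower in control cells (4.69% and 4.47% of all genes) and 1 higher in knockout-labelled cells (4.25%), and between treated cells 1 was called higher and 2 lower (8.47% and 6.57%). Rc3h1, which encodes Roquin and recruits CCR4-NOT to stem-loop elements, rose in both genotypes, at 0.74 (SE 0.17, adjusted p = 0.0275) and 0.88 (SE 0.17, adjusted p = 0.0152). These calls held in 3 and 5 of 8 fits, the first lost without any one of the untreated libraries or control_TGFb2h replicate 1, the second without either KO library or KO_TGFb2h replicate 2. Khsrp, a decay-promoting AU-rich element binder, fell in control cells at -0.85 (SE 0.19, adjusted p = 0.0275, 4 of 8 fits) and was higher between treated cells at 0.69 (adjusted p = 0.0373, 3 of 8 fits). Ybx1 and Tial1 were lower between treated cells at -0.52 and -0.50 (adjusted p = 0.0274 and 0.0499, each in 1 of 8 fits). Elavl1, the stabilising HuR gene, was not called in any comparison. Ybx1 and Hnrpdl were the most abundant, with group means of 160 to 230 RPKM and 33.3 to 39.4 RPKM.

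The kinases and phosphatases that set the activity of Zfp36 protein, such as the p38 target MK2 (Mapkapk2) and PP2A, and the 14-3-3 genes were tested as 10 genes. None was called with TGF-β1 in either genotype or between untreated cells, with medians of 0.24, 0.41 and -0.08. Of all genes, between 0.798% and 4.69% were called in each direction there. Between treated cells, where 8.47% of all genes were called higher, 2 of the 10 were. Mapk14, the p38α gene, was higher at 0.68 (SE 0.15, adjusted p = 0.0178, 6 of 8 fits, lost without either KO_TGFb2h library) and Ywhaz, a 14-3-3 gene, at 0.56 (SE 0.14, adjusted p = 0.0259, 3 of 8 fits). Ywhae and Ywhaz were the most abundant of these genes. Protein phosphorylation was not measured.

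Of 34 mRNAs described as targets of Zfp36-family proteins 25 passed the filter, and the cytokine genes Tnf, Il6, Il1b and Ifng were among the 9 that did not. With TGF-β1 in control cells 3 of 25 were called higher and 2 lower, where 4.69% and 4.47% of all genes were, with a list median of 1.00 against 0.02 for all genes. In knockout-labelled cells 5 were called higher and 2 lower, where 4.25% and 2.57% of all genes were, with a median of 1.16 against 0.00. Both medians rested on 1 treated library, since they were 0.24 without control_TGFb2h replicate 1 and 0.03 without KO_TGFb2h replicate 2. With each library left out in turn, 0 to 8 of the 25 were called higher in control and 1 to 11 in knockout-labelled cells, the lowest numbers being those without either control library and without KO replicate 1. Ptgs2, the inducible cyclooxygenase gene, which was not called, measured 671 and 107 CPM in control_TGFb2h and 28.9 and 611 in KO_TGFb2h. Many of the listed genes are also immediate targets of signalling, so their levels do not separate transcription from decay.

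Pim1, a survival kinase gene, rose by 1.54 (SE 0.23, adjusted p = 0.00497) in control and 2.03 (SE 0.23, adjusted p = 0.00168) in knockout-labelled cells. Plau, the urokinase gene, rose by 2.03 and 2.25 (adjusted p = 0.0110 and 0.00835), and Ddit4, an inhibitor of mTORC1, by 1.67 and 2.06 (adjusted p = 0.0250 and 0.0117). Fos and Vegfa were called in knockout-labelled cells, at 2.87 and 1.92 (adjusted p = 0.0248 and 0.0240). Notch1 fell by 2.08 and 1.54 and Pim3 by 1.66 and 1.71 on the log2 scale. The Notch1 calls held in 8 of 8 fits in both genotypes and the Pim1 call in knockout-labelled cells too, whereas in control cells Pim1, Plau, Ddit4 and Pim3 lost the call without either control library. Fos and Vegfa lost it without either KO library or KO_TGFb2h replicate 2, where they were at 1.56 and 1.07, and Ddit4 in control cells was at 0.92 and not called without control_TGFb2h replicate 1. In knockout-labelled cells Plau, Ddit4 and Pim3 held in 7, 6 and 5 of 8 fits. Between treated cells, where 8.47% of all genes were called higher and 6.57% lower, 1 of 25 was called, Ccne1, the cyclin E1 gene, at -1.10 (SE 0.28, adjusted p = 0.0294, 3 of 8 fits). Ccl2 and Ccnd1, the most abundant of the list, were not called in any comparison.

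**Figure D5:**
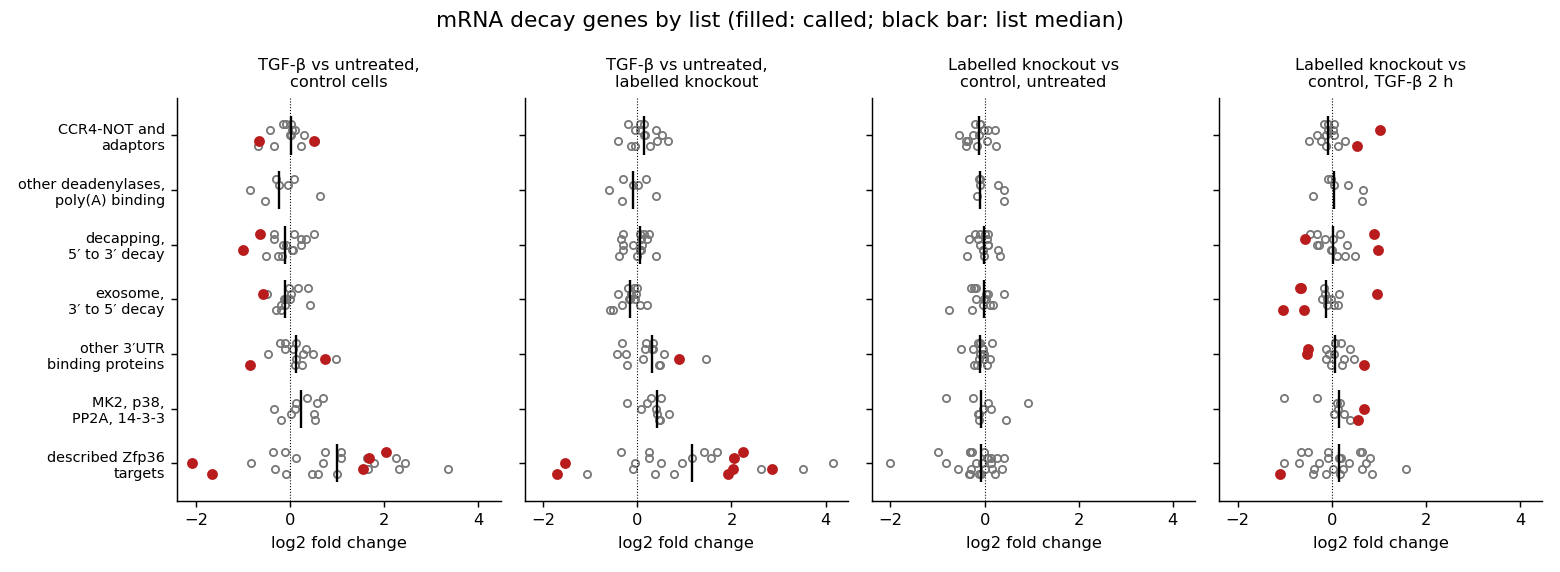
Log2 fold change (horizontal axis) of each tested gene of 7 lists in 4 comparisons, filled red where called, with a black bar at the list median. The described Zfp36 targets have medians of 1.00 and 1.16 in the TGF-β1 comparisons, which rest on 1 treated library each, the other lists have medians between -0.24 and 0.41, and no gene is filled between untreated cells.

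Krt14, a basal keratin listed here among markers of other cell types, rose with TGF-β1 by 2.33 (adjusted p = 0.00304) in control and 3.66 (adjusted p = 0.000682) in knockout-labelled cells. It is the gene behind the higher summed level of that marker list in the treated libraries. The levels in bulk RNA cannot tell fewer expressing cells from less RNA per cell, and the part of Krt14-positive cells in the members' values was not tested.

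The genes whose levels ran most closely with each member over the 8 libraries were taken as the 2 with the highest Pearson correlation of log2 CPM among the other tested genes. The 8 points are 4 groups of 2 libraries, so they share treatment, genotype label and depth, and the correlations are a description. Zfp36 was closest to Cnot3, a CCR4-NOT subunit (r = 0.963), and Prpsap1 (0.951), and Zfp36l1 to Ptpre (0.961) and Pvr (0.959). Zfp36l2 was closest to Csnk1d, a casein kinase gene (0.990), and Osbpl11 (0.987), and Btg1 to Smarcd1 (0.977) and Klf13 (0.976). Btg2 was closest to Rrp1b (0.981) and Mettl13 (0.978), Tob1 to Ephb3 (0.992) and Zfp839 (0.974), and Tob2 to Vat1 (0.987) and Dynll2 (0.984). Apart from Cnot3, no gene of the decay lists was among them.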

How the data were processed

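RNA of 8 NMuMG libraries was sequenced by the authors with Illumina kits and deposited as raw counts per gene, whole numbers with no normalization. The study's methods name alignment with Rsubread subjunc to mm10 and mm9, removal of duplicate reads with samtools, and DESeq2, whereas the submitters' processing notes name HISAT2, limma and mm10. The labels and the methods also name different library kits and sequencers. The counting tool and strand setting are not given in the sources used here. The gene identifiers and their order equal GENCODE vM1 (NCBIM37), which gave symbols, positions, exon lengths and 3′UTRs. No column lay outside the 8 samples.

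Groups were taken from the sample titles, and the study states 2 biological replicates per condition. Counts were filtered with filterByExpr (13028 of 37310 genes), scaled with TMM and tested with the quasi-likelihood test of edgeR 4.0.16 (R 4.3.3) in 1 model over all 4 groups, with 4 residual degrees of freedom, a common biological coefficient of variation of 0.18, and Benjamini-Hochberg adjustment over all tested genes. The thresholds (0.05 and 0.5) are those of the study. RPKM used the union of exons. The script was tested on simulated data. Named were all members, the genes of the lists that were called, the 2 most abundant of each list and the 2 closest genes by correlation, and Cnot7, Cnot8, Elavl1, Tnf, Il6, Il1b, Ifng, Ptgs2, Id1 and the epithelial markers were added after their values were seen. The members, lists and tests were chosen with earlier results of these data known. Alternatives were DESeq2 1.42.0, limma-voom (limma 3.58.1), RLE factors, no filter, a replicate block, only the 4 libraries compared, thinning to the smallest total (1 planned and 19 added random draws) and leaving out each library. Library totals limit the precision of members with few reads, and duplicate removal can lower the counts of abundant genes.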

Additional observations from a re-analysis of the deposited data

How the results depend on the processing

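Over 17 alternative settings, 535 of the values of single members kept their direction and their side of the threshold, 20 passed it newly, 19 no longer passed it and 14 changed sign. The cause was not tested for any of these. With TGF-β1 in control cells, members called higher went from 0 to 1 in DESeq2, without the filter and with the crossed replicate block. Members called lower went from 1 to 3 in the same 3 settings and to 2 after thinning, in the planned draw. Leaving out each library gave 0 to 2 called lower. In knockout-labelled cells leaving out each library gave 0 to 3 called higher and 0 to 1 lower. Between treated cells the 2 called higher became 0 in a fit of only the 4 libraries and 0 to 3 when each library was left out. After thinning, Btg1 in control cells was -0.023 and Zfp36l1 between treated cells was -0.0089 on the log2 scale, both reversed. In a second draw, added after seeing the data because calls moved with the draw, these were -0.068 and -0.035, the Tob2 difference of responses was -0.00029, and Zfp36 in control cells missed the threshold (adjusted p = 0.0662). Over 20 draws in all, Zfp36l2 and Btg1 in knockout-labelled cells and Zfp36l2 between treated cells were called each time.

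With each library left out in turn, where a lone library was taken to vary like the other groups, the sign turned within these ranges. In control cells with TGF-β1, Zfp36l1 ranged from -0.12 to 0.49 and Btg1 from -0.064 to 0.10. Tob2 between untreated cells ranged from -0.092 to 0.47. Between treated cells Zfp36l1 ranged from -0.51 to 0.49 and Btg2 from -0.74 to 0.058. For the difference of responses, Tob1 ranged from -0.13 to 0.68 and Zfp36l1 from -0.021 to 0.98. Adjusted p over all alternatives ranged from 0.000432 to 0.104 for Zfp36 in control cells and from 6.96e-12 to 0.0569 for Zfp36l2 in knockout-labelled cells.

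The replicate numbers are only shared labels. Deviations of same-numbered libraries from their group means correlated at 0.26 between control and control_TGFb2h and at -0.42 between the 2 treated groups. With the replicate block the members called were 0 higher and 1 lower in control cells, 2 and 1 in knockout-labelled cells, 0 and 0 between untreated and 2 and 0 between treated cells, as without it, while calls over all genes with TGF-β1 in control cells went from 611 and 583 to 439 and 392. With the numbers of the KO_TGFb2h libraries exchanged, a setting chosen after seeing the data, the calls were 963 higher and 991 lower there. Tob2 between treated cells also passed in this setting, at 0.64 (edgeR, adjusted p = 0.0246). Counts called in the gene lists moved by more than 1.5 times in 264 of 1672 cases, 141 of them from leaving out 1 library. Ranking by CPM in place of RPKM exchanged Tob1 and Zfp36l2 in control and KO, Zfp36l2 and Btg1 in KO_TGFb2h, and Zfp36l1 with Tob1 and Btg2 with Tob2 in control_TGFb2h.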

Other observations

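Among tested genes with an annotated 3′UTR of at least 1000 bases, 347 held 3 or more copies of TATTTAT, 2191 held 1 or 2 and 3629 held none, the members left out, a grouping made after the data were seen. With TGF-β1 in knockout-labelled cells 8.36% of the first class were called higher, against 6.25% and 5.81% of the others, while 4.03%, 2.46% and 2.73% were called lower. In control cells 4.90%, 6.16% and 4.99% were called higher and 3.75%, 4.43% and 5.65% lower. Between treated cells 4.61%, 8.12% and 11.9% were called higher in the libraries labelled knockout and 4.90%, 6.12% and 5.65% lower. The median 3′UTR length was 3141, 2320 and 1864 bases in these classes, and neither length nor heptamer number was tested.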
